A study of Mus musculus with 384 samples.

Results

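The ERK branch of mitogen-activated protein kinase (MAPK) signaling carries a set of brakes that its own activity switches on, and 10 genes of this set were examined in the accessible chromatin of a mouse breast tumor: the dual-specificity phosphatases Dusp1, Dusp2, Dusp4, Dusp5 and Dusp6, the Sprouty genes Spry1, Spry2 and Spry4, and the Sprouty-related genes Spred1 and Spred2. The accessible windows assigned to them were those centred no more than 50 kb from a transcription start site that the annotation gives for the gene, and a window within 1 kb was called a promoter window. This rule found 77 of the 50000 windows in the list, 51 at the 5 DUSP genes and 26 at the 5 Sprouty and Spred genes. The tumor came from an MMTV-PyMT mouse of 3 months, in which a mammary-directed viral promoter drives the polyoma middle T oncogene. Its fixed cells, stained with antibodies to EpCAM, an adhesion protein of epithelia, and CD45, a leukocyte phosphatase, were profiled by Pi-ATAC, which reads transposase-accessible DNA and protein stain in the same single cell. The 384 wells, 96 on each of 4 plates, form 1 group in the labels without a stain result per well. The deposited data are 1 list of 500-bp windows called on the pooled cells in mouse build mm9, so there were no replicates, no control group and no read depth or score per window, and epithelial cells and leukocytes are not separated.

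In ERK signaling, growth factor receptors activate Ras, and Ras sets off a relay of kinases from Raf through MEK to ERK. Transcription factors that ERK activates then raise the expression of many DUSP, Sprouty and Spred genes, whose products close the loop. DUSP proteins remove phosphate from MAP kinases, whereas Sprouty and Spred proteins sit at membranes and restrain the pathway at the level of Ras and Raf. The polyoma middle T antigen that drives this tumor model works at the membrane by engaging Src-family kinases and, among other routes, adaptors that lead to Ras.

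Stretches of 5 genes at or just upstream of the promoter are printed first, because they show the different words that the windows of these genes held. A word here is a short consensus sequence searched on both strands, and capitals mark those named for each stretch. Other searched words were left in lower case, such as HIF words (ACGTG or GCGTG) in the Dusp5, Dusp2 and Spred1 stretches. All stretches are read from the plus strand of mm9, 5′ to 3′. That of Dusp5 holds a pair of boxes for SRF, the serum response factor that works with Ets-family partners at immediate early genes, and a PU.1 word, which names a leukocyte Ets factor but can be shared by its relatives. The Dusp2 stretch has a word of EGR, an ERK-induced zinc finger family. The Dusp6 and Spry2 stretches have the Ets core CCGGAA, and the Spred1 stretch has a pair of words of the CEBP family, which is prominent in myeloid cells and fat.
Dusp5 promoter (chr19:53603436-53603598): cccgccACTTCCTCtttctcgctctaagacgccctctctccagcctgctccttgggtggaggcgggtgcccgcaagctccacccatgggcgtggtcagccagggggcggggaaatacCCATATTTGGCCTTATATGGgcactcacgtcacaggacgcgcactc
Dusp2 promoter (chr2:127161737-127161865): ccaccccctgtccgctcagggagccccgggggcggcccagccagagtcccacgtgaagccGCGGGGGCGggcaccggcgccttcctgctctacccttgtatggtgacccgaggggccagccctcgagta
Dusp6 promoter (chr10:98724973-98725038): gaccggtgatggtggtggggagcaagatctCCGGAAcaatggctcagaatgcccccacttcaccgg
Spry2 promoter (chr14:106296462-106296527): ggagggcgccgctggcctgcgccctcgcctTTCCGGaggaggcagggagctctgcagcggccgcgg
Spred1 upstream (chr2:116945690-116945852): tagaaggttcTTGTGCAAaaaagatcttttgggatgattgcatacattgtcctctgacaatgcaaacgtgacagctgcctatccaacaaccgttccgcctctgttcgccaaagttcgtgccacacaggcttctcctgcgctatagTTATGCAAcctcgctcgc

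The AP-1 word TGACTCA, which reads TGAGTCA on the other strand, is bound by Fos and Jun proteins, many of them products of ERK-induced genes. It occurred in windows of 7 of the 10 genes. The share of all protein-coding genes with such a window is not given here. Genes with more windows have more places for the word, so this count alone does not set the feedback genes apart. Per window the share was 18.2%, against 13.5% of all windows. For 6 of the 7 genes the occurrence nearest to the start site is shown, with a fixed flank of bases on each side. The words lay in different surroundings, and those of Dusp1 and Spry2 came as pairs.
Dusp1 upstream (chr17:26651752-26651817): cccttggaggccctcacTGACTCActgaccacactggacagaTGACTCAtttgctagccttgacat
Dusp2 upstream (chr2:127159818-127159858): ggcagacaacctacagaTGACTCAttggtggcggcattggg
Dusp4 intron (chr8:35878370-35878410): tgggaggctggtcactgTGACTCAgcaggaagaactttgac
Dusp6 upstream (chr10:98713587-98713627): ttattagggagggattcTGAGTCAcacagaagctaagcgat
Spry2 upstream (chr14:106322152-106322211): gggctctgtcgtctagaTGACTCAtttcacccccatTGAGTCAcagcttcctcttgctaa
Spred2 intron (chr11:19826257-19826297): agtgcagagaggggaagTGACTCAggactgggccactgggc

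All but 1 of the feedback genes had an accessible promoter in the list. A promoter window was found at 9 of the 10 genes, against 43.5% of all 22350 protein-coding genes, and the exception was Spry1. The promoters of the 10 genes are rich in CpG dinucleotides, with 61 to 146 in the 1000 bases around the start site against a median of 41 over all genes. When all genes were divided into 10 equal classes by this CpG count, 66.7% to 70.9% of those in the 4 classes that hold the feedback genes had a promoter window. Several promoters were covered more than singly. Of the 10 genes, 6 had 2 or more promoter windows, against 14.5% of all protein-coding genes and 33.2% of genes with any promoter window. In the 4 CpG classes that hold the feedback genes the share was 24.9%. The promoter windows of Dusp2 and of Spred2, and some of those of Dusp5, overlapped one another and so share DNA. Dusp5 had 4, and 0.783% of all genes had 4 or more.

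**Figure D1:**
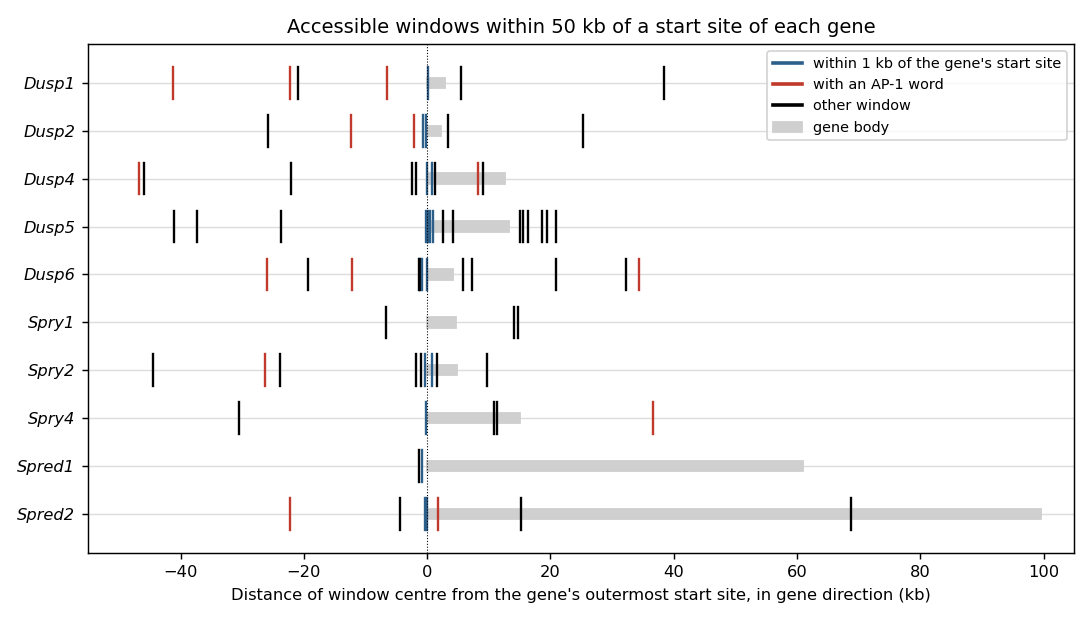
Position of every accessible window (vertical strokes) within 50 kb of a start site of each gene, drawn as the distance of the window centre in kb from the outermost start site, with upstream to the left. The strokes crowd at the start of Dusp5, Dusp6, Dusp4 and Spry2, and Spry1 has none there. Windows with the AP-1 word (red) lie more than 1 kb from the start sites, some of them close to the start at this scale.

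The map of windows around the start sites shows that most of the genes had windows on both sides of the start and well beyond it. Counts of windows within 50 kb ranged from 2 at Spred1 to 15 at Dusp5, with a median of 7. Over all protein-coding genes the median was 3, with quartiles of 1 and 6. Counts above that upper quartile were seen in 7 of the 10 feedback genes, against 21.0% of all genes, namely in all 5 DUSP genes and in Spry2 and Spred2. The DUSP genes had 7 to 15 windows with a median of 10, and the Sprouty and Spred genes had 2 to 9 with a median of 5, so the 2 groups overlapped. No test was made, since the genes are not replicates and the list is a single pool.

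**Figure D2:**
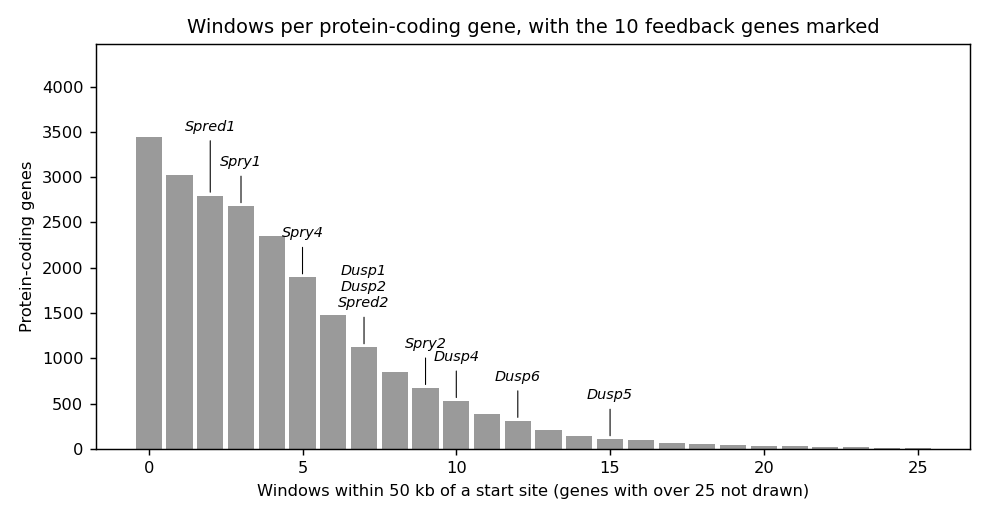
Number of protein-coding genes (vertical axis) by how many windows each had within 50 kb of its start sites (horizontal axis, drawn up to 25), with the 10 feedback genes marked at their own counts. Spred1 with 2 and Spry1 with 3 lie in the bulk of all genes, and Dusp6 with 12 and Dusp5 with 15 lie in the right tail.

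Most of these windows were nearest to the feedback gene itself. At 7 of the 10 genes no other protein-coding gene starts within 50 kb, which holds for 26.3% of all protein-coding genes. For 70 of the 77 windows, or 90.9%, the feedback gene was the nearest protein-coding start, while over all genes this held for 40.8% of the windows within reach. For genes with no other protein-coding start within 50 kb it held for 83.8%, and for those of them with a promoter window for 85.8%. The 7 others were 3 windows upstream of Dusp1 that lay nearer to Gm8225, 1 each at Dusp2 nearer to Stard7, Astl and Adra2b, and 1 at Spry4 nearer to Arhgap26. Genes that likewise have no neighbor within 50 kb, and have a promoter window, had a median of 4 windows with an upper quartile of 7, and 7 is the median of the feedback genes.

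Among the nuclear phosphatases, Dusp1 encodes the immediate early phosphatase that acts on p38 and JNK as well as ERK. It had 7 windows, more than 79.0% of protein-coding genes. Its only promoter window, chr17:26645051-26645550, was centred 118 bp inside the gene and held 53 CpG. The nearest window upstream lay at 6526 bp and is the AP-1 pair printed above (chr17:26651740-26652239), with the 2 words starting 25 bases apart. Further AP-1 windows lay 22265 bp upstream (chr17:26667479-26667978) and 41232 bp upstream (chr17:26686446-26686945), both nearer to Gm8225. Downstream, windows lay at 4717 and 37729 bp and held none of the 11 words searched.

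Dusp2, which encodes a nuclear phosphatase known from activated leukocytes, also had 7 windows. Its 2 promoter windows overlapped, at 646 bp (chr2:127160999-127161498) and 200 bp (chr2:127161445-127161944) upstream, and the nearer one carries the EGR word shown above. AP-1 words were found in 2 upstream windows. That at 2113 bp (chr2:127159532-127160031) had 1, and that at 12301 bp (chr2:127149344-127149843) had 2. The nearest window downstream, at 2860 bp (chr2:127164956-127165455), was a promoter window of Astl.

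Dusp4 encodes an inducible nuclear phosphatase of ERK and JNK. It had 10 windows, more than 90.8% of protein-coding genes, and each was nearest to Dusp4. Promoter windows were centred 83 bp upstream (chr8:35870018-35870517, 45 CpG) and 813 bp downstream (chr8:35870914-35871413, 48 CpG), and a window in an intron overlapped the latter. The overlap contains a word of the RUNX family, TGTGGTTT, so that both windows count as RUNX windows. Deeper in the gene, the intron window at 8223 bp (chr8:35878324-35878823) had the AP-1 word printed above and that at 9115 bp the only NF-kB word among the 77 windows. The other AP-1 window lay 46779 bp upstream (chr8:35823322-35823821), near the edge of the 50-kb reach. Just inside that reach were this window and 1 at 45870 bp, and just outside it were windows 50205 bp downstream of Dusp1 and 50380 bp upstream of Dusp5. Dusp4 lies on chromosome 8, on which the list retained 51.8% of the peaks called, judged by the running numbers in the peak names, against 23.6% to 26.5% on the chromosomes of the other 9 genes. The part of this in the count at Dusp4 was not tested.

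Dusp5 encodes a nuclear phosphatase selective for ERK. With 15 windows it exceeded 97.8% of protein-coding genes, and all 15 were nearest to Dusp5. Its start was covered by 4 promoter windows, at 129 bp upstream (chr19:53603220-53603719) and at 77 bp (chr19:53603426-53603925), 441 bp (chr19:53603790-53604289) and 970 bp downstream (chr19:53604319-53604818), with 52, 59, 62 and 23 CpG. Those at 129 and 77 bp are summits of 1 peak and share the stretch printed above. In it the SRF boxes stand end to end at chr19:53603553-53603562 and chr19:53603563-53603572, just upstream of the start site, and the PU.1 word lies at chr19:53603442-53603449. SRF boxes standing end to end were found in 0.004% of all windows, namely 2 of 50000, and these 2 are the overlapping Dusp5 windows. At least 2 SRF boxes anywhere in the window were found in 21 windows (0.042%), and an SRF box with a PU.1 word in 62 (0.124%). This combination was singled out after its values were seen, and because the 2 windows share the DNA, it is a single occurrence. An AP-1 word was found in 0 of the 15 windows of Dusp5. Another group of 6 windows lay past the end of the gene, between 15090 and 20917 bp from the start, and 3 more lay 23659 to 41125 bp upstream.

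Dusp6 encodes the cytoplasmic phosphatase specific for ERK, a common readout of the pathway. It had 12 windows, more than 94.9% of protein-coding genes. A single peak reached over its promoter and kept 4 summits in the list, at 1378, 1140, 830 and 59 bp upstream. The latter 2 are its promoter windows (chr10:98724785-98725284 and chr10:98725556-98726055). None of the 11 words occurred in these 2, while the window at 830 bp had the shorter Ets core shown above. The first window downstream lay at 5749 bp (chr10:98731364-98731863), beyond the end of the gene, and it and the window at 7275 bp each held a PU.1 word. AP-1 words were found 12175 bp (chr10:98713440-98713939) and 25863 bp upstream (chr10:98699752-98700251) and 34402 bp downstream (chr10:98760017-98760516).

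Of the Sprouty genes, which encode membrane adaptors that restrain signaling from receptor tyrosine kinases, Spry1 and Spry2 formed a contrast. Spry1 had 3 windows, at 6661 bp upstream (chr3:37531958-37532457) and at 13960 (chr3:37552712-37553211) and 14629 bp downstream, and none within 1 kb of its 4 annotated start sites. This count was higher than in 41.4% of protein-coding genes. Between the windows that flank the start, 3 running numbers in the peak names were passed over, as they are where a peak was called and not retained. The region has 84 CpG around the start, within the range of the other genes, and the absence of a promoter window in a list of the top 50000 does not show closed chromatin. Spry2 had 9 windows, more than 87.8% of protein-coding genes. Those around its start formed a run of 5 that did not overlap, from 1769 bp upstream to 1532 bp downstream. Its promoter windows were centred 420 bp upstream (chr14:106296206-106296705), with 63 CpG the highest count among the 77 windows, and 751 bp downstream (chr14:106295035-106295534). The 1 AP-1 window of Spry2, 26317 bp upstream (chr14:106322103-106322602), had 2 words that start 19 bases apart.

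Spry4 had 5 windows, more than 63.9% of protein-coding genes. Its promoter window was centred 111 bp upstream of the start (chr18:38760783-38761282) and held 33 CpG. An overlapping pair of windows lay in coding exon sequence at 10862 bp (chr18:38749810-38750309) and 11303 bp. No other window outside the promoters was exonic, while the promoter windows at 813 bp of Dusp4 and 441 bp of Dusp5 were also centred in coding sequence. An AP-1 word was found 36669 bp downstream (chr18:38724003-38724502). The window 30465 bp upstream lay in an intron of Arhgap26, to which it was nearest, and held EGR and RUNX words.

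The Spred genes encode membrane proteins that inhibit Ras signaling, Spred1 by bringing neurofibromin to Ras. Spred1 had 2 windows, more than 28.9% of protein-coding genes, and both were summits of 1 peak upstream of its start, at 1362 bp (chr2:116945498-116945997) and 843 bp (chr2:116946017-116946516), although its start has the most CpG of the 10 genes. Both held CEBP words, and 2 or more CEBP words, as in the farther window, were found in 0.074% of all windows. No window lay within the 60906-bp gene, and the next in the list was 128439 bp downstream, with 7 running numbers passed over. Spred2 had 7 windows. Promoter windows overlapped at 416 bp (chr11:19823712-19824211) and 27 bp upstream (chr11:19824168-19824667) of an annotated start, and the latter held a PU.1 word. AP-1 words occurred 22278 bp upstream (chr11:19801850-19802349) and in an intron at 1724 bp (chr11:19825919-19826418), and a CEBP word 4405 bp upstream.

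Across the 77 windows, location differed from the list as a whole mainly within and between genes. Promoter windows of any gene made up 23.4% of them and 26.6% of all windows, introns 13.0% against 34.0%, exons 2.6% against 3.64%, and intergenic DNA 61.0% against 35.7%. Apart from the Spred genes, the genes are 2218 to 15001 bp long. Windows overlapped another window in 20.8% of cases, against 7.45% of all windows, and at promoters in 50.0% against 17.3%.

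CpG content fell with distance from the start, as over the whole list. Windows within 1 kb of the start had a median of 35 CpG, those at 1 to 10 kb 13, those at 10 to 25 kb 6 and those at 25 to 50 kb 7. For all windows the medians by distance to the nearest protein-coding start were 32, 7, 6 and 6. The 1 to 10 kb range thus held more CpG at the feedback genes than over the list, which was not matched to their CpG-rich starts. The richest windows there were those 1378 and 1140 bp upstream of Dusp6 with 55 and 34 CpG, followed by windows of Dusp4 and Spred2 with 29.

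**Figure D3:**
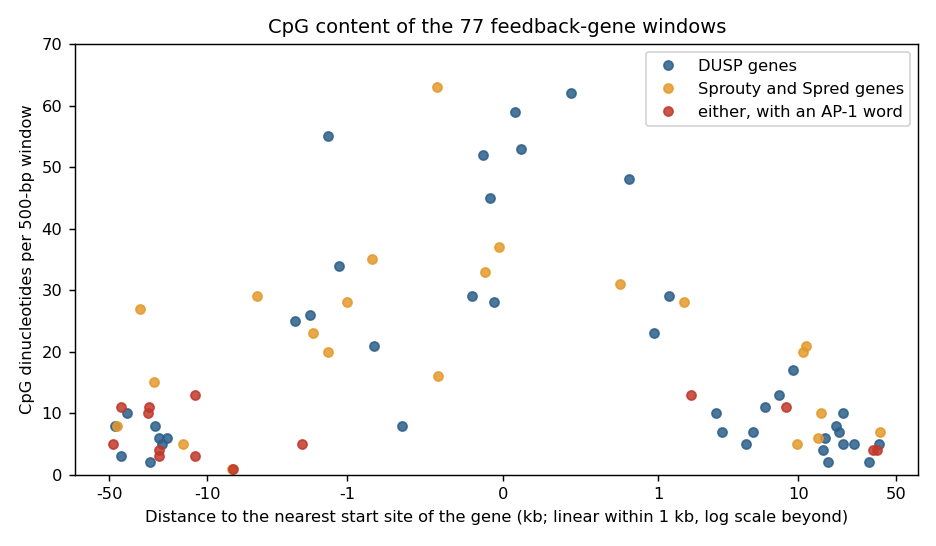
CpG dinucleotides per 500-bp window (vertical axis) against the signed distance to the nearest start site of the gene in kb (horizontal axis, linear within 1 kb and logarithmic beyond) for the 77 windows. Counts reach 63 next to the start, and the windows with an AP-1 word (red) have 1 to 13 CpG.

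AP-1 words were found in 14 of the 77 windows, or 18.2% (exact 95% binomial interval 10.3 to 28.6, counting error only), against 13.5% of all windows, a share that lies inside the interval. All 14 were more than 1 kb from any start site. There the share was 14 of 59, or 23.7% (exact 95% interval 13.6 to 36.6). Of all such windows 15.6% had the word, which also lies inside the interval. Of the 18 windows at a promoter of any gene, 0 had the word (exact 95% interval 0 to 18.5%), against 7.78% of all such windows. By distance from the start the word was in 0 of 17 windows within 1 kb, 4 of 23 at 1 to 10 kb, 4 of 22 at 10 to 25 kb and 6 of 15 at 25 to 50 kb. The share over the whole list in these ranges, by distance to the nearest protein-coding start, was 7.47%, 15.9%, 16.5% and 17.0%. The 2 measures differ where another gene is nearer, as at the AP-1 window 41232 bp from Dusp1, which lies 6991 bp from Gm8225. The relation to the list turned with the part of the window that was read, the reach and the words searched. Within the central 200 bp the share was 5.19% against 6.66% of all windows. In whole windows it was 10.0% with a reach of 10 kb, 12.9% with 25 kb and 21.5% with 100 kb, against 13.5% of all windows at any distance. With looser words, TGANTCA and TGACGTCA, it was 19.5% against 19.6% of all windows. The DUSP genes held 10 of the 14 (19.6% of their windows) and the Sprouty and Spred genes 4 (15.4%). A window with 2 or more AP-1 words was found at each of Dusp1, Dusp2 and Spry2. These make up 3.9% of the 77 windows against 1.73% of all, and this feature was not set in advance.

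**Figure D4:**
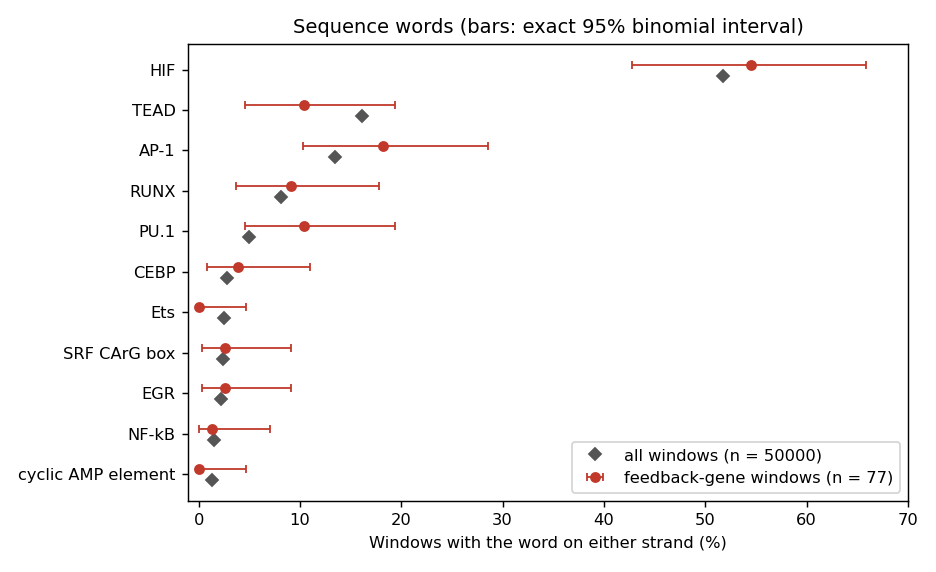
Percent of windows with each of the 11 sequence words on either strand, for the 77 feedback-gene windows (red circles, bars are exact 95% binomial intervals that cover counting error only) and for all 50000 windows (grey diamonds). For each of the 11 words the share in all windows lies within the interval of the feedback-gene windows.

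The Ets words turned on their length. Ets factors are the classical nuclear partners of ERK, and the word CCGGAAGT was in 0 of the 77 windows against 2.49% of all windows, with an exact 95% interval of 0 to 4.68% for 0 of 77. The core CCGGAA alone, tried after the 0 had been seen, was in 13 of the 77 windows (16.9%) against 13.8% of all, and in 7 of the 18 promoter windows (38.9%) against 31.2% of all promoter windows. Those windows belong to Dusp4, Dusp5, Dusp6, Spry2, Spry4 and Spred2 and 1 upstream window of Dusp2. The PU.1 word GAGGAAGT was in 8 windows of 6 genes (10.4%, interval 4.59 to 19.4) against 4.96% of all windows. Of these 8, the 2 overlapping Dusp5 windows share a single word, so they are not separate occurrences as the interval assumes.

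For all 11 words the share over the list lay inside the binomial interval of the 77 windows, as the plot of word shares shows. The RUNX words TGTGGTTT, TGTGGTCT, TGCGGTTT and TGCGGTCT were in 7 windows (9.09%) against 8.15% of all. The TEAD words CATTCCA and CATTCCT were in 8 windows (10.4%) against 16.1%. Of the 18 windows at a promoter of any gene, 0 had a TEAD word (binomial interval 0 to 18.5%). The share in all promoter windows was 10.8%, which lies inside that interval. At Spry4 the TEAD word overlapped the AP-1 word by 2 letters. The HIF words ACGTG and GCGTG, the shortest searched, were in 42 windows (54.5%) against 51.7%. SRF boxes were in 2 windows (2.6%) against 2.38%, both of them the Dusp5 windows. The EGR words GCGTGGGCG and GCGGGGGCG, the former of which contains a HIF word, were in 2 windows (2.6%) against 2.25%. The CEBP words TTGCGCAA, TTGCATAA, TTATGCAA, TTGCACAA and TTGTGCAA were in 3 windows (3.9%) against 2.83%, all at the Spred genes. The NF-kB word was in 1 window (1.3%) against 1.56%, and the cyclic AMP element TGACGTCA in 0 against 1.37%. A match describes letters in the window and not a bound factor.

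Set beside the rest of the pathway, the feedback genes were not alone in their open promoters, although the lists differed in how common these were. Of the 17 genes of the kinase cascade itself, from the adaptor Grb2 through Ras, Raf and MEK to ERK and its RSK targets, 16 had a promoter window, with a median of 6 windows within 50 kb. Ksr1, a scaffold of the cascade, had no promoter window, and the most windows were at Map2k2 with 13, which encodes a MEK, and at Hras with 10, of which 3 and 0 were nearest to the gene itself. Among 9 other DUSP-family phosphatases 5 had a promoter window and the median was 6, with 12 at Dusp10 and 11 at Dusp7, of which 10 and 8 were nearest to the gene, and 0 at Dusp3. Of 13 further brakes on receptors and Ras, 10 had a promoter window and the median was 8, with most at Rasa2 (14), a Ras GTPase-activating protein, and Ptpn6 (12), a phosphatase of blood cells, where 13 and 7 were nearest to the gene.

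Genes that ERK is known to induce, 12 in all, had a promoter window in 9 cases and a median of 6.5 windows, with 15 each at Ier2 and Ier3, of which 6 and 4 were nearest to the gene. The 10 kinases of the p38 and JNK branch, which the broader DUSP proteins also switch off, had a promoter window in 5 cases and a median of 5. There Map2k7 had the most windows (12), followed by Mapk11 (8), with 1 and 0 nearest to the gene, and Mapk14, which encodes p38 alpha, had 0 within 50 kb. Promoter windows were thus found at 50.0% of these kinases and 55.6% of the other phosphatases. Both values lie between the 43.5% of all protein-coding genes and the 69.6% of the 4 CpG classes that hold the feedback genes. Those of the cascade (94.1%), the other brakes (76.9%) and the ERK-induced genes (75.0%) were above both. The CpG counts at the starts of the listed genes were not compared. The medians of these 5 lists ranged from 5 to 8 around the 7 of the feedback genes, and the ranges overlapped. When only windows nearest to the gene itself were counted, the median was 5.5 for the feedback genes (range 2 to 15), 1 over all protein-coding genes, 3 for the cascade and for the other phosphatases, 4 for the other brakes and for the ERK-induced genes, and 1 for the p38 and JNK branch. The ranges still overlapped. Among the genes named from these lists, Hras lies on chromosome 7, Ier2 and Map2k7 on 8, and Dusp7 and Rasa2 on 9. On these chromosomes and on X more of the called peaks were retained. The other phosphatases there, Dusp7, Dusp8, Dusp9 and Dusp26, had 11, 10, 5 and 7 windows, and those elsewhere 0, 12, 2, 6 and 1. Promoter windows were found elsewhere at Dusp10 and Dusp16, and on these chromosomes at Dusp7, Dusp8 and Dusp9. The other lists also hold genes there, and among the feedback genes only Dusp4. Without these chromosomes the median of the feedback genes stayed at 7, and those of the 5 lists were not computed. The part of this in the counts and list medians was not tested.

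**Figure D5:**
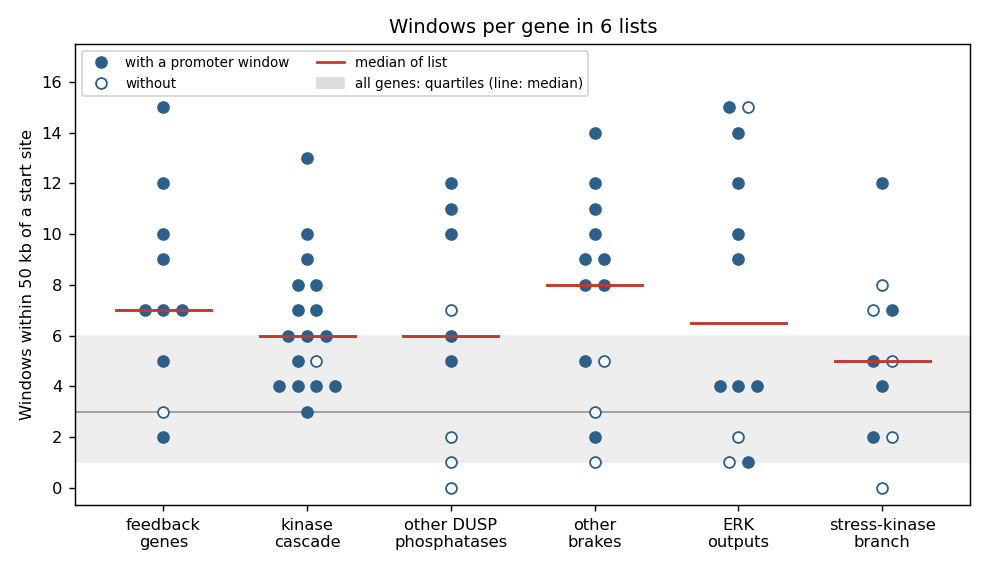
Windows within 50 kb of a start site (vertical axis) for each gene of 6 lists, with filled circles for genes that have a promoter window, red bars for list medians and grey for the quartiles (1 and 6) and median (3) of all protein-coding genes. The list medians lie between 5 and 8, and Dusp5 with 15 is level with Ier2 and Ier3.

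Markers of cell types, both stained and not stained, gave little by which to place these windows. Promoter windows were found at 1 of 4 epithelial markers (Cdh1) and 2 of 4 leukocyte markers (Coro1a and Laptm5). Of markers of cells that were not stained, 3 of 3 fibroblast and 0 of 3 endothelial ones had them. The share over all protein-coding genes was 43.5%. Cdh1 lies on chromosome 8 and Coro1a on 7, where more of the called peaks were retained. The genes of the stained proteins, Epcam and Ptprc, had 9 and 4 windows within 50 kb but none at the promoter. The paper counts every cell of this experiment that passed its filter as positive for EpCAM or CD45. Among them CD45-positive cells were a larger part than in the stained tumor suspension. The cells in which a given DUSP, Sprouty or Spred window was open cannot be told apart in the pooled list.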

How the data were processed

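Single cells of an MMTV-PyMT breast tumor were profiled by Pi-ATAC in 384 wells that form 1 group in the labels. Per the labels and the study's methods, the authors aligned reads with Bowtie2 2.1.0, removed duplicates with Picard 1.79, pooled the cells, called summits with MACS2 at q below 0.05 (no MACS2 version is given in the sources used here), widened each to 500 bp and kept the 50000 windows with the lowest q. The deposited file holds only window positions and peak names, so depth per well or window is unknown. The labels name mm9 and hg19, and all windows fit the mm9 chromosomes.

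Windows were placed by their centres (positions count from 1) with the NCBIM37 (mm9) sequence and GENCODE vM1, in Python 3.11.15 with numpy 2.4.6, pandas 2.3.3, scipy 1.17.1 and matplotlib 3.10.9. The distance to a gene is that to its nearest annotated start site. Start-site CpG was counted in the 1000 bases around the outermost start. Locations were assigned as promoter, exon, intron or intergenic, in that order. Words were searched on both strands, with exact binomial intervals (Clopper-Pearson, 95%), which cover counting error only. Counting of windows and words was tested on simulated data. Because all wells were pooled, no test between groups was made. The genes, word lists and 5 pathway lists (62 genes, of which Spry3 was not matched and Hras was matched as Hras1) were chosen with earlier results of these data known. All 10 feedback genes, their promoter windows, nearest windows and AP-1 windows are named. Other pathway genes are named where they have no window within 50 kb or are the 2 with most in their list. Ksr1, Dusp8, Dusp9, Dusp16 and Dusp26 were named after their values were seen. Alternatives changed the promoter distance, the reach, the start sites, the overlaps, the chromosomes, the words and the genes left out.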

Additional observations from a re-analysis of the deposited data

How the results depend on the processing

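The number of feedback genes with a promoter window stayed at 9 except at a promoter distance of 500 bp, where Spred1 dropped out and 8 remained. The share of all protein-coding genes with a promoter window was 40.1% at 500 bp, 47.0% at 2 kb and 42.8% without chromosomes 7, 8, 9 and X, on which more of the called peaks were retained. The number of windows at the feedback genes followed the reach, with 40 at 10 kb and 121 at 100 kb, and the median per gene was 4 at 10 kb (1 over all protein-coding genes) and 12 at 100 kb (6 over all). The AP-1 share was 5.19% in the central 200 bp, against 6.66% of all windows. With a reach of 10 kb it was 10.0%, with 25 kb 12.9% and with 100 kb 21.5%, against 13.5% of all windows at any distance. For the Ets word the 6-letter core, added after the data had been seen, gave 16.9% in place of 0. In all, 10 of 50 alternatives moved a value by more than its limit, and leaving out each gene in turn was not among them. No paired analysis was possible because the result comes from no test and all wells were pooled. Depth sets what the list can show, since a window that is not among the top 50000 may still be accessible, and the number of reads behind a window is unknown.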
